A study of Homo sapiens with 6 samples.

Results

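The RNA of HEK293T cells, an embryonic kidney line of human origin that takes up plasmids readily, was sequenced after transfection with alleles of ATF6, and 5 of the 6 libraries were compared by the kind of allele they received. The WT library and the library of the missense allele M67V formed one class. The libraries of the nonsense allele N267star and of the deletion alleles ex2-3del and ex8-14del formed the other, called truncated or deleted here. The sixth library, labelled as a non-transfected control, was not in the comparison and is given beside it as a level only. All cells were of the same line and all 5 compared cultures overexpressed ATF6 on top of their own ATF6 gene. The lipofection protocol in the labels mentions an empty vector, which the control's own label does not.

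Each allele was represented by 1 library. The 2 libraries of one class and the 3 of the other were therefore different alleles, not repeats of an allele, and every test below sets the difference between classes against the spread between alleles within a class. The grouping was made with the expression of these libraries known, including that of M67V. A second count table of the study heads the WT column with a number in place of the allele's name, and neither the labels nor the file headers say if the WT construct was of full length. The counts without the WT library are given for that reason.

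ATF6 is made as a membrane protein of the endoplasmic reticulum (ER). When unfolded protein accumulates in the ER it moves to the Golgi, where the site-1 and site-2 proteases cut it, and the released N-terminal fragment enters the nucleus as a basic leucine zipper transcription factor. With the CCAAT-binding factor NF-Y it acts on ER stress response elements (ERSE) ahead of chaperone and degradation genes. Loss-of-function alleles of ATF6 cause achromatopsia, an inherited loss of cone vision. From its N terminus the protein carries the activation domain, then the leucine zipper, the membrane segment and the luminal part.

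The alleles were placed on the reference transcript of 16 exons and 670 codons in GENCODE 29. Exons 2 to 3 hold 165 coding bases, a multiple of 3, and touch codons 28 to 83. Exons 8 to 14 hold 810 coding bases, also a multiple of 3, and touch codons 304 to 573. Both deletions would thus keep the reading frame on this transcript, although the exon numbering used for the constructs is not stated. Codon 67 encodes methionine and lies within the stretch that exons 2 to 3 encode, so M67V and ex2-3del alter the same part of the protein. The asparagine codon that N267star replaces lies between the deleted stretches.

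The 5 libraries held between 16023952 and 16813355 counts. Levels are given as CPM, counts scaled to library size, after TMM scaling, and 3 counts correspond to between 0.178 and 0.187 CPM. ATF6 itself was left out of every ranking. WT and M67V had 1152 and 1493 CPM of it, N267star had 712.5 CPM, ex2-3del 1349 CPM and ex8-14del 2404 CPM, against 85.0 CPM without transfection. The classes overlapped (log2 difference -0.17, SE 0.315, edgeR adjusted p = 0.89), and reads of the introduced and the endogenous gene were counted together. CPM is not scaled to transcript length and the deletion alleles are shorter, so these levels do not compare transcript numbers. The 8 genes usual in HEK293 cells were all present, with summed levels of 1103 to 1135 CPM in WT and M67V and 1116 to 1173 CPM in the other class. Of 8 defining genes of leukocytes, hepatocytes, fibroblasts and endothelium, 6 stayed at or below 0.355 CPM in each of the 5 libraries. The collagen genes COL1A1 (27.3 to 32.4 CPM) and COL3A1 (1.01 to 1.96 CPM) were above that. Summed, the 8 genes stood at 34.5 and 34.7 CPM in WT and M67V, at 29.1 to 31.9 CPM in the other class and at 36.4 CPM without transfection, and their part in the results below was not tested. In such bulk RNA a smaller share of transfected cells and a weaker response per cell cannot be told apart.

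Genes that were higher in WT and M67V far outnumbered genes that were lower. Of 13140 genes tested, 304 were called higher (2.31%) and 3 were called lower (0.0228%), at an adjusted p under 0.05 in edgeR's quasi-likelihood test with Benjamini-Hochberg adjustment. The median log2 difference of all genes tested was -0.004. Among the 304 genes the median was 0.50 and the range ran from 0.20 to 4.65. At least a 2-fold difference was seen in 71 of them (0.54% of the genes tested), of which 20 exceeded 4-fold, while 180 differed by less than 1.5-fold. In 303 of the 304 both the WT and the M67V library stood above all 3 truncated or deleted libraries. The 304 were called by this same class difference, so that count describes them and tests nothing. The share of all genes tested with such an order was not counted. By size alone, without a test, 116 genes (0.883%) had each of the former libraries at least 1.5-fold above each of the latter, and 3 genes (0.0228%) had them as far below. Without the WT library 186 genes were called higher, without M67V 184, without any minimum level 191, and 145 of the 304 were called with every library left out in turn. Of the 71 genes at 2-fold or more, 60 were called in every such fit. Without WT or without M67V that class is a lone library, which is then assumed to vary as the 3 truncated or deleted alleles do among themselves. Among the 71 genes, 8 were under 1 CPM in all 3 truncated or deleted libraries. Without WT or without M67V these 8 fell under the minimum level for testing, so their loss was fixed in advance.

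**Figure D1:**
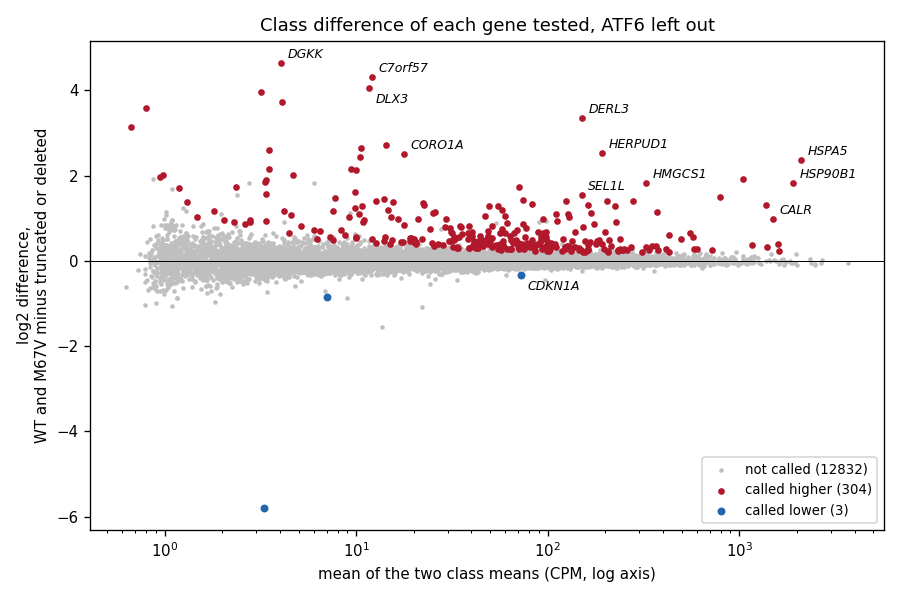
Log2 difference between the mean of WT and M67V and the mean of the 3 truncated or deleted libraries (vertical axis) against the mean level of the 2 classes in CPM (horizontal log axis), with 1 point per gene and ATF6 left out. The 304 genes called higher (red) reach from near-silent genes such as DGKK to HSPA5, which stood at 3376 CPM or more in both libraries, and only 3 genes were called lower (blue).

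All 4 marker genes of the ATF6 response were higher in WT and M67V. HSPA5, the ER chaperone BiP, stood at 3648 CPM in WT and 3376 CPM in M67V. It stood at 693 CPM in the N267star library, at 599.9 CPM in ex2-3del and at 739 CPM in ex8-14del. In the same order of libraries, HERPUD1, an ER membrane protein that organises degradation complexes, stood at 344.5 and 309.8 CPM against 58.2, 54.4 and 57.9 CPM. The classes lay far apart for both genes. The non-transfected library had 558 CPM of HSPA5 and 48.5 CPM of HERPUD1. All 3 truncated or deleted libraries stood above it for both genes, but far nearer to it than WT and M67V did. HSPA5 was 5.18-fold higher (log2 difference 2.37, SE 0.073, adjusted p = 1.5e-10) and HERPUD1 5.74-fold (2.52, SE 0.0591, adjusted p = 1.5e-11). HSP90B1, the ER chaperone GRP94, stood at 3162 and 2819 CPM against 876, 781 and 878 CPM. SEL1L, which links substrates to the ligase HRD1, stood at 237 and 210.6 CPM against 77.2, 76.8 and 77.5 CPM. The 3 low values of SEL1L were almost equal, near the 70.5 CPM of the non-transfected library. HSP90B1 was 3.53-fold higher (1.82, SE 0.0629, adjusted p = 5.2e-10) and SEL1L 2.90-fold (1.53, SE 0.0575, adjusted p = 1.1e-09). Leaving out any 1 library kept these 4 calls.

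The promoters of the first 3 markers hold the letters of the ER stress response elements. They are shown as the 200 bases ahead of the RefSeq start in GRCh38.p14, on the strand of the gene, because they carry the patterns counted next. Capitals mark the fixed letters of ERSE (CCAAT, any 9 bases, CCACG) or of ERSE-II (ATTGG, any 1 base, CCACG), read on either strand. The HSPA5 stretch is chr9:125241344-125241543 on the minus strand, HSP90B1 is chr12:103930210-103930409 on the plus strand, and HERPUD1 is chr16:56931942-56932141 on the plus strand.
HSPA5: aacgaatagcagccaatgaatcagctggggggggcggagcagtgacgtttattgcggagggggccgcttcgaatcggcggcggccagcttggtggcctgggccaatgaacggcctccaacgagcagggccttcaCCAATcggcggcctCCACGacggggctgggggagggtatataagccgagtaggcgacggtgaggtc
HSP90B1: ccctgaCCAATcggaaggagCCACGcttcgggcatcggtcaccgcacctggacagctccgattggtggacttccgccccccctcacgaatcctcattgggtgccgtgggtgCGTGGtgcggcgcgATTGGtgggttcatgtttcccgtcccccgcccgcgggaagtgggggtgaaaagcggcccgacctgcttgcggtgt
HERPUD1: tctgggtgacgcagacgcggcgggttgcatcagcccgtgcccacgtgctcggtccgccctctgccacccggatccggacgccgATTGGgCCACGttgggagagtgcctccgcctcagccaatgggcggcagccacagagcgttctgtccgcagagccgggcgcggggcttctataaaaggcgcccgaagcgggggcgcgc
HSPA5 holds 1 exact ERSE, HSP90B1 holds 2, the second on the opposite strand, and HERPUD1 holds 1 ERSE-II. SEL1L holds neither pattern in its window.

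Over the whole RefSeq promoter table the exact elements were rare. Windows of 300 bases, 250 before and 50 after the start, were at hand for 10652 genes tested and for 251 of the 304 genes called higher. ERSE was found in 22 of 27305 promoters (0.0806%), in 15 of the 10652 (0.141%) and in 10 of the 251 (3.98%). ERSE-II was found in 0.0549% of all promoters, in 0.113% of those tested and in 5 of the 251 (1.99%). The pattern UPRE (TGACGTGG, which holds the half-site CCACG on its opposite strand), was found in 0.795% of all promoters, 0.929% of those tested and 7 of the 251 (2.79%). The CCAAT box alone, which NF-Y reads and which both ERSE patterns contain, was found in 35.7% of all promoters, in 36.8% of those tested and in 164 of the 251 (65.3%). Its share was 64.9% of the 57 promoters of genes at 2-fold or more and 65.5% of the 194 below 2-fold. CCACG alone was found in 37.9% of all promoters, 5329 of the 10652 tested and 131 of the 251 (52.2%). These shares were not tested, and a match is a run of letters, not a shown binding site.

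Outside the markers, the ERSE and ERSE-II matches in genes called higher fell in genes of several roles, shown on the strand of the match with 5 bases on either side.
CALR, chr19:12938379-12938407, minus strand: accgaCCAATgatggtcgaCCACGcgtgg
CRELD2 and ALG12, chr22:49918549-49918577, minus strand: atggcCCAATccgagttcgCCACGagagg
XBP1, chr22:28800598-28800626, minus strand: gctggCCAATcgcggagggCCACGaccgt
CANX, chr5:179698773-179698801, plus strand: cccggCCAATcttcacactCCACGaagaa
ERO1B, chr1:236282178-236282206, plus strand: ggcggCCAATgaggcgggaCCACGcgggc
HYOU1, chr11:119057269-119057289, plus strand: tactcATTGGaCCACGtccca
HYOU1, chr11:119057375-119057395, plus strand: ctgggATTGGaCCACGtcacg
SDF2L1, chr22:21642109-21642129, minus strand: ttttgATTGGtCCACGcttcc
NUCB1, chr19:48900238-48900258, minus strand: gtctgATTGGtCCACGctggc
CRELD2 and ALG12 lie head to head and share 1 ERSE, 62 to 80 bases ahead of the start of CRELD2 and 116 to 134 bases ahead of that of ALG12. Their differences were 1.33 and 0.32 on the log2 scale. The remaining matches in genes called higher lay ahead of TRIM5, TMEM120A and RAD9A, which each overlap another expressed gene, so that their counts are uncertain.

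ER chaperones were the list with the most members called (52.2% of those tested, against 2.31% of all genes tested). Of 23 tested, 12 were called higher and none lower, with a list median of 0.32 on the log2 scale, and all 12 were called with every library left out in turn. HYOU1, the ER HSP110 that exchanges nucleotide on BiP, stood at 1089 and 1240 CPM in WT and M67V against 417, 403 and 425 CPM (log2 difference 1.49, adjusted p = 1.1e-09). CRELD1 (104 and 113 CPM against 32.6, 30.1 and 34.4) and CRELD2 (114 and 122 CPM against 46.5, 45.8 and 48.5), ER proteins with EGF-like repeats, differed by 1.74 and 1.33. The classes did not overlap for any of these genes. MANF, a secreted ER stress protein, differed by 1.41. The J-domain partners of BiP split: DNAJB11 (1.30), DNAJC3 (1.11) and DNAJB9 (0.84) were called, and DNAJC1 (-0.03, adjusted p = 0.91), DNAJC10 (0.10, adjusted p = 0.58) and SEC63 (0.22, adjusted p = 0.084) were not. Of the ER peptidyl-prolyl isomerases, FKBP2 (0.59) and PPIB (0.32) were called. FKBP7, FKBP9, FKBP10, FKBP11 and FKBP14 were not, with differences from -0.11 to 0.22. With overlapping genes left out 11 members of the list were called.

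Disulfide isomerases were divided in the same way. Of 21 tested, 6 were called higher (28.6%, against 2.31% of all genes tested) and the list median was 0.03. PDIA4 stood at 1536 and 1770 CPM against 442, 420.2 and 449 CPM (1.92, adjusted p = 1.5e-10). P4HB, the founding disulfide isomerase and a subunit of prolyl 4-hydroxylase, stood at 1963 and 1969 CPM against 723, 701 and 965 CPM (1.30, adjusted p = 1.7e-06). The ex8-14del library was the highest of the 3 for P4HB, and with a robust spread estimate the gene was not called (adjusted p = 0.098). PDIA6 (0.65) and PDIA3 (0.60) were called but overlap other expressed genes. The oxidase ERO1B (0.45) was not called without WT (adjusted p = 0.073), and ERP44 (0.31) was not called without M67V. TXNDC5 (-0.01, adjusted p = 0.95), ERP29 (0.03, adjusted p = 0.89) and TMX1 (-0.13, adjusted p = 0.56) were not called.

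The calnexin and calreticulin cycle holds glycoproteins in the ER until they are folded. In this list 7 of 18 members were called higher (38.9%, against 2.31% of all genes tested) and the median was 0.12. CALR, calreticulin, stood at 2047 and 1935 CPM against 1016, 963 and 1026 CPM (0.99, adjusted p = 2.1e-08). Its membrane-bound relative CANX stood at 1833 and 1773 CPM against 1455, 1333 and 1345 CPM (0.39, adjusted p = 0.00043). OS9, a lectin of degradation (0.51), EDEM1, which commits glycoproteins to degradation (0.49), and UGGT1, the folding sensor (0.46), lay between them. EDEM2 (0.03), EDEM3 (0.14) and UGGT2 (0.05) were not called (adjusted p = 0.95, 0.42 and 0.87). MAN1A2 (0.38) was called but was lost without WT, without M67V or without ex2-3del.

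In ER-associated degradation 8 of 30 members were called higher (26.7%, against 2.31% of all genes tested), with a median of 0.02. DERL3, a derlin of the membrane channel, stood at 253 and 295 CPM against 22.8, 27.1 and 29.8 CPM (3.36, adjusted p = 3.3e-11), but it overlaps SMARCB1 and its count is uncertain. DERL2 (0.64), which also overlaps an expressed gene, was called and DERL1 (0.09, adjusted p = 0.58) was not. SYVN1, the HRD1 ligase itself, differed by 0.46 and overlaps an expressed gene too. VCP, the ATPase that extracts substrates, stood at 558 and 605 CPM against 398, 408 and 413 CPM (0.51, adjusted p = 1.4e-05). The ligases RNF139 (-0.07) and RNF185 (-0.03) were not called (adjusted p = 0.76 and 0.9). With overlapping genes left out 5 members were called. The 4 ER lists described so far held 33 called genes among 92 tested (35.9%, against 2.31% of all genes tested). Their summed counts made up 2.75% of the WT library and 2.73% of the M67V library, 1.54% to 1.59% of the truncated or deleted libraries and 1.46% of the non-transfected one.

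**Figure D2:**
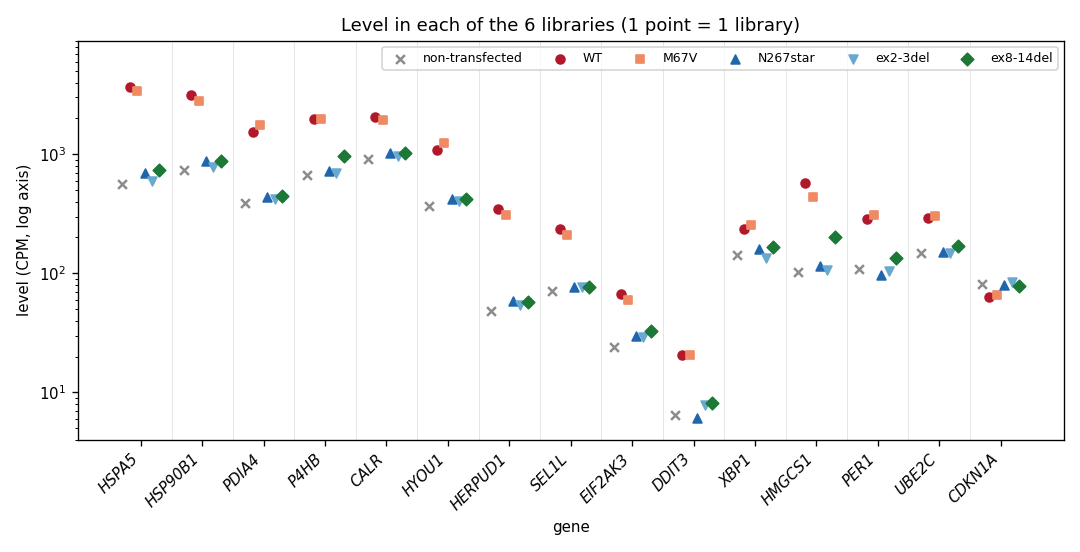
Level in CPM (log axis) of 15 genes in each of the 6 libraries, with 1 point per library. WT and M67V lie above the 3 truncated or deleted libraries for the first 14 genes and below them for CDKN1A. Among those 14 genes, which were picked for display, ex8-14del is the highest of the 3 for all but HERPUD1. The margin is very small for some, such as HSP90B1 and SEL1L. It is the highest of the 3 in 48.7% of the 304 genes called higher and in 34.6% of all genes tested.

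Among the stress sensors and transcription factors other than ATF6, 4 of 18 were called higher (22.2%, against 2.31% of all genes tested). EIF2AK3, which encodes the sensor kinase PERK, stood at 67.3 and 59.8 CPM against 29.9, 28.96 and 33.1 CPM (1.05, adjusted p = 9.6e-07). XBP1, the factor that IRE1 activates by splicing, stood at 237 and 255 CPM against 159, 134 and 168 CPM (0.68, adjusted p = 8.4e-05). The classes were separate for both genes, with a smaller gap for XBP1. Of the CREB3 family, which is cut by the same proteases as ATF6, CREB3L2 differed by 0.39 and CREB3L4 by 0.62, the latter overlapping an expressed gene and not called without WT (adjusted p = 0.066). ERN1, which encodes IRE1, differed by 0.15 (adjusted p = 0.6) and ATF6B, the paralogue of ATF6, by 0.09 (adjusted p = 0.59). The proteases MBTPS1 (-0.01) and MBTPS2 (-0.04) and the NF-Y subunits NFYA (0.02), NFYB (0.03) and NFYC (-0.06) were not called, with adjusted p from 0.81 to 0.94.

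The PERK and ATF4 axis, the integrated stress response, had 6 of 37 members called higher. That was 16.2%, against 2.31% of all genes tested, and the list median was 0.04. DDIT3, the transcription factor CHOP, stood at 20.5 CPM in both WT and M67V against 6.09, 7.86 and 8.19 CPM (1.46, adjusted p = 1.9e-06). CTH, which makes cysteine from cystathionine, stood at 52.4 and 45.9 CPM against 30.7, 30.0 and 32.1 CPM (0.67, adjusted p = 9.2e-05). These were the 2 members called with every library left out in turn. The cationic amino acid transporter SLC7A1 (0.26), the tRNA synthetases WARS (0.26) and AARS (0.28) and the folate enzyme MTHFD2 (0.23) were each lost without at least 1 library, and 3 members were called without WT, without M67V or without ex2-3del. ATF4 (0.04, adjusted p = 0.85), ASNS (-0.04, adjusted p = 0.83) and TRIB3 (-0.07, adjusted p = 0.84), customary ATF4 targets in the case of the last 2, were not called.

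Cholesterol synthesis had 6 of 25 members called higher (24%, against 2.31% of all genes tested) and a median of 0.09. HMGCS1, which makes HMG-CoA, stood at 576 and 439.6 CPM against 116, 107 and 203 CPM (1.84, adjusted p = 4.4e-05). Its level varied among alleles more than that of the chaperones, with ex8-14del well above the other truncated or deleted libraries, and with a robust spread estimate it was not called (adjusted p = 0.26). NSDHL, a sterol demethylation enzyme (0.68), and the sterol carrier STARD4 (0.65) were called in every fit with a library left out. IDI1, an isomerase of the isoprenoid pathway (1.12), overlaps WDR37. SQLE (0.24) and HSD17B7 (0.40) were lost without WT and without ex2-3del. INSIG1, which retains the sterol sensor in the ER (0.11, adjusted p = 0.44), was not called.

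**Figure D3:**
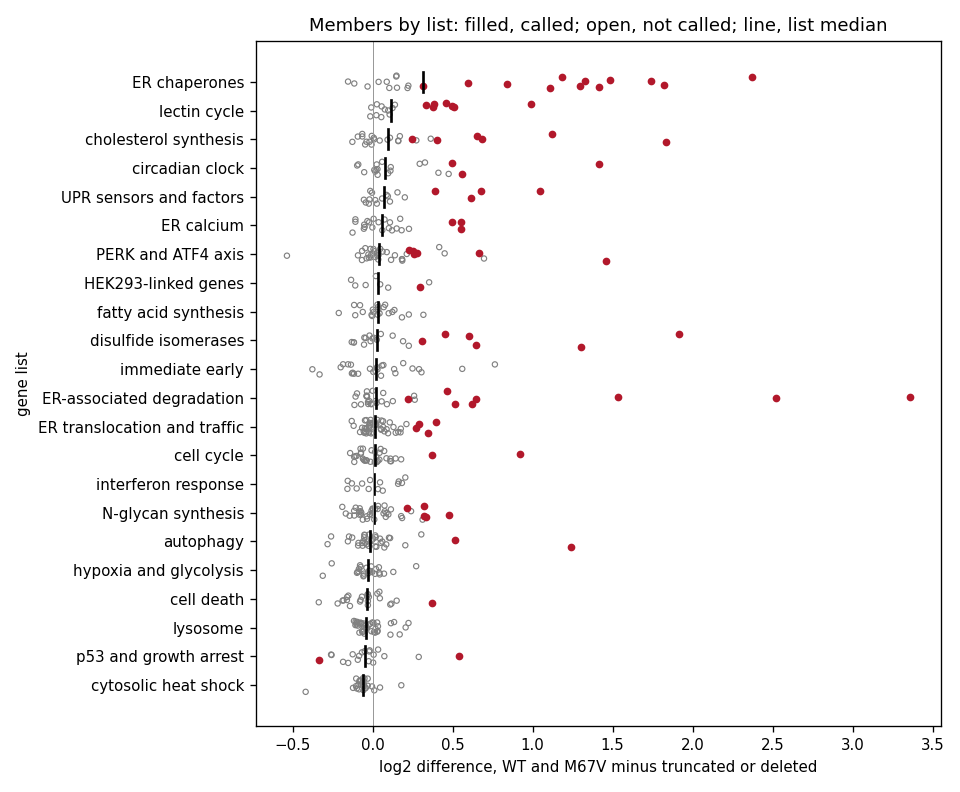
Log2 difference between WT and M67V and the truncated or deleted libraries (horizontal axis) for the tested members of each gene list with at least 8 of them (rows), with 1 point per gene, filled where called, and a line at the list median. The medians run from -0.06 for cytosolic heat shock genes to 0.32 for ER chaperones, and the called members lie to the right of 0 apart from CDKN1A.

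Smaller shares were called in the neighbouring secretory lists. They were 13.04% of ER calcium, 11.9% of N-glycan synthesis and 8.696% of translocation and traffic genes, against 2.31% of all genes tested. Of 23 ER calcium genes 3 were called higher: the SERCA pump ATP2A2 (664 and 692 CPM against 484, 465 and 439 CPM, log2 difference 0.55, adjusted p = 1.3e-05) and the calcium-binding nucleobindins NUCB2 (0.55) and NUCB1 (0.50). N-glycan synthesis had 5 of 42 called (MAGT1 0.32, GMPPB 0.47, UAP1 0.33, ALG12 0.32, RPN1 0.21). With overlapping genes left out 3 were called, and 3 without ex2-3del. GMPPB, UAP1, ALG12 and RPN1 each lost their call with at least 1 library left out. Translocation and early traffic had 4 of 46 called (the COPII coat genes SEC24A 0.39 and SEC31A 0.29, TMED7 0.35 and MIA3 0.27), and 2 without WT or without ex2-3del. TMED7 shares exons with the readthrough gene TMED7-TICAM2, and their summed counts overlapped between the classes (2407 and 2117 in WT and M67V against 2135, 1982 and 1901). The medians of the N-glycan and the traffic list were 0.01 each.

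A few genes of other lists were called higher, only 1 to 3 in each, so the shares rest on few genes. They were 15% of clock, 12.5% of HEK293-linked, 6.06% of cell cycle and 5.56% of autophagy genes. For p53 and growth arrest genes the share was 5.26% and for cell death genes 4.17%, against 2.31% of all genes tested. PER1, a repressor of the circadian clock, stood at 286 and 311 CPM against 96.5, 104 and 135 CPM (1.41, adjusted p = 6.6e-07), although not with a robust spread estimate (adjusted p = 0.053). Of 20 clock genes 3 were called, the other 2 being TEF (0.56) and PER3 (0.49), both lost without M67V, which left 1. UBE2C, the ubiquitin-conjugating enzyme of the anaphase-promoting complex, stood at 292 and 302 CPM against 152, 149 and 170.0 CPM (0.92, adjusted p = 2.3e-07). It was 1 of 2 genes called among 33 of the cell cycle, with CCNE2 (0.37), which was lost without WT. Of 36 autophagy genes WIPI1 (1.24, overlapping) and OPTN (0.52) were called, the latter not without M67V (adjusted p = 0.092). TXNIP (0.37) was the 1 call among 24 cell death genes, and it was lost without WT, M67V, ex2-3del or ex8-14del. GADD45B (0.54) was called among 19 p53 and growth arrest genes and was lost without WT, M67V, N267star or ex2-3del. KRT18 (0.30) was called among the 8 HEK293-linked genes and was lost without the same 4 libraries.

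No member was called higher or lower in the lists of fatty acid synthesis (22 tested), lysosome (39), cytosolic heat shock (27), immediate early genes (26), interferon response (14) or hypoxia and glycolysis (25) in edgeR. At an unadjusted p under 0.05 these lists held 4, 3, 1, 4, 2 and 1 higher members and 1, 2, 2, 3, 0 and 0 lower ones. DESeq2's Wald test called 1 higher member, in the cytosolic heat shock list, and edgeR with a robust spread estimate called 1 of fatty acid synthesis and 2 immediate early genes. Without ex8-14del, edgeR called 3 immediate early genes higher and 1 gene each of the lysosome, cytosolic heat shock and hypoxia lists. Without N267star it called 1 immediate early gene and 1 of fatty acid synthesis, and without M67V 1 of fatty acid synthesis. The abundant cytosolic chaperones HSPA8 (2350 and 2319 CPM against 2465, 2443 and 2304) and HSP90AA1 (2456 and 2401 CPM against 2660, 2589 and 2428) overlapped between the classes, with adjusted p of 0.8 and 0.64. None of the 5 other genes of inherited achromatopsia, CNGA3, CNGB3, GNAT2, PDE6C and PDE6H, reached the minimum level for testing. Their summed levels were 1.07 and 2.02 CPM in WT and M67V and 0.709 to 0.950 CPM in the other class.

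By size, the largest differences were those of genes close to silent in the truncated or deleted libraries. Of the 71 genes at 2-fold or more, 8 were under 1 CPM in all 3 truncated or deleted libraries and so had to differ. They are CDH15, DGKK, FAM19A4, FGF23, GRM8, PRR23D1, PRR23D2 and TMEM31. Some others, among them C7orf57 and MISP, reached 1 CPM in ex8-14del alone of these 3 libraries. All of these passed the minimum level only through WT and M67V, and their values are a description. In 40 of the 71 the mean level in the truncated or deleted libraries was under 10 CPM. DGKK, a diacylglycerol kinase, had 127 and 122 counts in WT and M67V and 1, 4 and 5 counts in the other class (log2 difference 4.65). C7orf57, an uncharacterised gene, stood at 21.6 and 24.8 CPM against 0.769, 0.768 and 1.603 CPM (4.32). DLX3, a homeobox factor, stood at 19.7 and 24.7 CPM against 1.06, 2.13 and 0.475 CPM (4.05, adjusted p = 1.3e-07). In the non-transfected library these 3 genes had 1, 9 and 18 counts, as low as in the truncated or deleted ones. GRM8, a metabotropic glutamate receptor (3.96), ZNF804A (2.73), the metalloprotease TLL2 (2.65), CRISPLD2 (2.60) and the actin-binding coronin CORO1A (27.0 and 33.8 CPM against 4.79, 5.91 and 5.05, 2.51) followed. MISP, an actin-bundling protein, differed by 3.73 with 0 to 1.31 CPM in the low class, but it was not called by DESeq2 (adjusted p = 0.67) or with a robust spread estimate (adjusted p = 0.24). PRR23D1 (3.59) and PRR23D2 (3.14) are near-identical copies, so their counts are uncertain. DGKK, GRM8 and both PRR23D genes fell under the minimum level for testing without WT or without M67V, and the fitted differences of genes this close to 0 depend on the prior count of 2.

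Of the 3 genes called lower, CDKN1A, the cell cycle inhibitor p21, was the 1 that overlaps no other expressed gene. It stood at 63.3 and 65.2 CPM in WT and M67V against 80.2, 84.0 and 78.4 CPM, with 81.6 CPM without transfection. The difference was -0.33 (SE 0.0573, adjusted p = 0.0041), and it was not called without WT (adjusted p = 0.061). FHDC1, which overlaps ARFIP1, stood at 5.31 and 4.80 CPM against 9.34, 9.28 and 8.73 CPM (-0.84, adjusted p = 0.00095). The readthrough gene TMED7-TICAM2 had 0 counts in WT and M67V and 105, 127 and 103 counts in the other class, at least 35.4-fold lower against a floor of 3 counts per library. TICAM2, which shares its exons, went the other way, with 263 and 226 counts against 54, 65 and 52. Added together the pair had 263 and 226 counts against 159, 192 and 155, and 145 in the non-transfected library, so the lower call of the readthrough gene is not a lower total at that locus.

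WT and M67V stood close to each other in most of the genes called higher. The test sets the class difference against the spread within a class, so the call itself favours such genes. This closeness describes the called genes and does not measure how alike the 2 alleles act. WT was the higher of the 2 in 145 of the 304 genes, and the median difference, WT minus M67V, was -0.01 on the log2 scale. The kinase PRKCZ, which overlaps an expressed gene, stood at 49.8 CPM in WT and 72.2 CPM in M67V (-0.53), and the cadherin CDH3 at 3.10 and 4.29 CPM (-0.45). TMEM200B was the 1 gene of the 304 whose classes overlapped. It stood at 3.22 CPM in WT and 32.1 CPM in M67V against 3.07, 3.31 and 3.15 CPM, overlaps EPB41, and had a difference of 0.02 without M67V. With 1 library per allele, differences between WT and M67V have no test here.

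The gap between the classes varied among the genes called higher. The smallest gaps between the lower of WT and M67V and the highest of the other 3, TMEM200B aside, were those of NANS (0.09), C14orf1 (0.10), MIA3, SQLE and TUBB4B (0.11 each) on the log2 scale. In NANS, C14orf1 and TUBB4B the ex8-14del library was that highest one. The largest gaps were those of DGKK (4.22), GRM8 (3.85), C7orf57 (3.65), DLX3 (3.14), PRR23D1 (3.12) and DERL3 (3.08). DGKK, GRM8, C7orf57 and PRR23D1 passed the minimum level only through WT and M67V, so their gaps are a description.

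Set beside the non-transfected library, 293 of the 304 genes stood above it in WT and 296 in M67V, against 177, 151 and 198 in N267star, ex2-3del, ex8-14del. Their median log2 ratio to it was 0.53 in WT and 0.56 in M67V, and 0.03, -0.00 and 0.06 in the other class, taken as N267star, ex2-3del, ex8-14del. Over all genes tested the median ratio lay between -0.000 and 0.002 in the transfected libraries, and the number above the non-transfected library was not counted. The 304 genes were chosen by the class difference, so the counts and ratios describe them and test nothing. They held 5.12% and 5.10% of the counts in WT and M67V, 3.17%, 3.09% and 3.25% in the other class and 3.09% in the non-transfected library. For the 71 genes at 2-fold or more, the median share of the excess of WT and M67V over the non-transfected library that was also present was 1.73% in the N267star library, 1.69% in the ex2-3del library and 6.13% in the ex8-14del library. The ex8-14del library was the highest of the 3 in 42 of these 71 genes (59.2%), against 34.6% of all genes tested. More than 20% of that excess was present in 1 of the 71 genes for N267star, in 5 for ex2-3del and in 7 for ex8-14del, with HMGCS1 (24.8%) and P4HB (23.1%) among the last. The ex8-14del library also had the highest ATF6 level, and the part of that level in these shares was not tested.

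**Figure D4:**
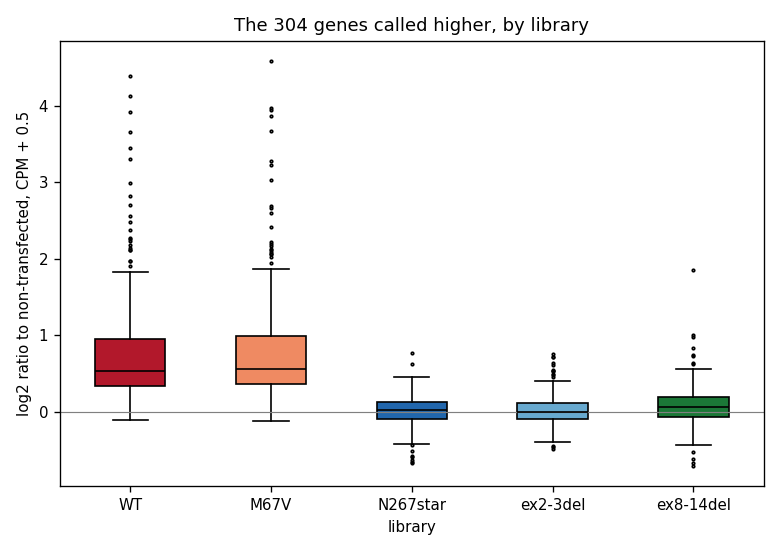
Log2 ratio to the non-transfected library, with 0.5 CPM added to each level (vertical axis), of the 304 genes called higher in each of the 5 transfected libraries (horizontal axis). Boxes span the quartiles with a line at the median, whiskers reach 1.5 times that span and dots lie beyond it, and the medians are 0.53 and 0.56 in WT and M67V and between -0.00 and 0.06 in the other libraries.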

How the data were processed

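RNA of 6 cultures was measured, with libraries made at BGI per the labels' protocols. The authors deposited estimated counts (expected counts) per gene symbol, and the submitters' processing notes name the build GRCh37.p13 and DESeq without a role. The sources used here give no aligner, counting program or strand setting. The placeholder 0.028 for no reads was set to 0 and the expected counts were rounded. Of 38072 rows, 28 with a calendar date for a name were left out (0.215% to 0.231% of the counts) and 94 rows sharing a symbol were summed, leaving 37993 symbols. A second count table with 6 columns of per-sample values was not used.

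Genes with at least 1 CPM in at least 2 of the 5 transfected libraries entered edgeR 4.0.16 (R 4.3.3, TMM factors 0.989 to 1.01, glmQLFit and glmQLFTest, prior count 2, 3 residual degrees of freedom), with the allele class as the only term and p-values adjusted over all 13140 genes. The coefficient of variation between alleles of a class was 0.0503. No label says that these cultures repeat one another, so p-values measure the spread between these libraries only. CPM of all 6 libraries came from 1 joint TMM scaling. Counting floors cover counting error only. The steps were tested on simulated data. No 2 libraries agreed within sampling noise. DESeq2 1.42.0 was an alternative. Other steps used Python 3.11.15 with pandas 2.3.3, numpy 2.4.6 and matplotlib 3.10.9.

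The grouping, the 24 gene lists, the tests and the rule for named genes were chosen with earlier results of these data known. The rule took the 4 markers, the 12 highest and 8 lowest called differences in genes that overlap no other expressed gene, up to 5 called members per list by p (the 2 most abundant where none was called), the 6 largest and 6 smallest gaps, the 4 largest differences between WT and M67V, and any sensor or achromatopsia gene. Further members named within a list or with a motif match, and genes in sets of 5 or fewer, were chosen after their values were seen. Some genes that the rule takes are not reported here. Gene spans for overlap came from RefSeq of GRCh38.p14, which matched 98.9% of genes tested. Of these genes 20.0% overlap another expressed gene, against 21.4% of those called higher. ATF6 exons came from GENCODE 29 and promoter sequences from RefSeq.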

Additional observations from a re-analysis of the deposited data

How the results depend on the processing

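The count of 304 genes called higher was 191 with no minimum level and 116 under the 1.5-fold separation. The count of 3 called lower was 7 in DESeq2's Wald test, 9 with a robust spread estimate and 1 without overlapping genes. The cause was not tested, except that leaving out overlapping genes removes FHDC1 and TMED7-TICAM2 from the genes tested and that the minimum level sets how many genes share the adjustment (17690 without it). With each library left out in turn, between 184 and 360 genes were called higher and between 4 and 9 lower, the lowest higher counts being those without M67V and without WT (186). DESeq2 size factors (294 higher, 3 lower), DESeq2's Wald test (268 higher), a robust spread estimate (340 higher) and leaving out overlapping genes (234 higher) stayed within 1.5 times. Of the 304 genes, 257 were also called by DESeq2's Wald test. No result reversed its direction under any of these settings. No paired analysis was possible because each allele has 1 library. Depth limits the near-silent genes, where a level of 3 counts is under 0.2 CPM, and the single library per allele limits any statement on 1 allele.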

Other observations

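Of the 304 genes called higher, 233 were in no list, as are most of the genes tested. Of the 71 genes at 2-fold or more, 10 were in no list, overlapped no expressed gene and had a mean of at least 10 CPM in the truncated or deleted libraries, and they are named here after their values were seen. CDK2AP2, a cell cycle regulator, stood at 178 and 183 CPM in WT and M67V against 61.5, 60.2 and 82.4 CPM (log2 difference 1.40). MSTO1, a nuclear gene linked to mitochondrial distribution, stood at 142 and 158 CPM against 68.6, 71.1 and 69.9 CPM (1.10). TUBB3, the neuronal beta-tubulin, stood at 79.2 and 76.2 CPM against 31.2, 27.0 and 37.5 CPM (1.28). The heparan sulfate enzymes SULF1 (1.31) and HS3ST3A1 (1.05), the anion transporter SLC13A4 (1.35), the zinc finger gene ZNF75D (1.29), the lysosome-positioning gene BORCS6 (1.15) and the small GTPase gene RAB9B (1.12) also belong to the 10. All of these were called with every library left out in turn. TSPYL2, a nucleosome assembly gene, stood at 332 and 310.0 CPM against 108, 98.2 and 186 CPM (1.29). It was not called by DESeq2 (adjusted p = 0.052) or with a robust spread estimate (adjusted p = 0.36).

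CNGA3, a cone photoreceptor channel gene of inherited achromatopsia, had 12 counts in the M67V library, 1 in N267star and 0 in the others, the 12 counts being above the floor of 3 counts. It was not tested.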
